A study of Homo sapiens with 12 samples.

Results

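Transcripts of 8 human genes of heme breakdown were described in 12 RNA sequencing libraries of HepG2 cells: HMOX1, HMOX2, BLVRA, BLVRB, BACH1, SLC48A1, FLVCR1 and HPX. They were chosen by symbol, for their known roles and with earlier results of these data known, from the 20030 genes of the deposited table. All 8 were among the 10823 genes that reached at least 1 FPKM in at least 3 libraries and were tested. HepG2 is an established line from a human liver tumour that still secretes many plasma proteins. The 4 groups of 3 libraries were named by the agent the cells received, which was DMSO (the solvent control), 8HQ, FAC, or 8HQ and FAC together (8HQ/FAC). All groups shared the cell line, a time of 6 h and a stated 10 µM, which the labels place before DMSO and do not tie to a single agent. The agents are given only by these letters, which commonly stand for ferric ammonium citrate, an iron salt (FAC), and 8-hydroxyquinoline, a metal-binding molecule (8HQ). Whether a group's 3 libraries were grown as separate cultures is not labelled. The p-values therefore measure the spread between these samples only, and that spread may be technical.

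Heme oxygenase opens the heme ring with electrons passed on by cytochrome P450 reductase, and releases iron, carbon monoxide and biliverdin. Biliverdin reductase then turns biliverdin into bilirubin, which hepatocytes conjugate and export into bile. The inducible gene HMOX1 is a classic target of the repressor BACH1, which binds heme and then leaves DNA, so that activators such as NRF2 can take its place.

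Values were FPKM, that is fragments or reads scaled by transcript length and by the mapped total, so levels of different genes can be set side by side. In 8HQ/FAC the changes still fell with transcript length, as given below, which limits ratios between genes of unlike length. Spacing of low values put DMSO replicate 1 near 19000000 mapped fragments or reads (quartiles over 327 genes 18700000 and 23100000), and the others at 0.773 to 1 times its depth. At that depth 1 FPKM was about 34.7 fragments or reads for HMOX1 and 57.3 for SLC48A1, whose FPKM level was the lowest of the 8. The FPKM of all genes summed to between 335500 and 346900 in the 9 libraries of the DMSO, 8HQ and FAC groups and to between 419300 and 427200 in 8HQ/FAC. The median log2 change of all tested genes was -0.23 for 8HQ/FAC against DMSO and within 0.011 of 0 for either agent alone. All 8 hepatocyte markers were above 0 in every library. Hemoglobin beta (HBB) reached 35.2 FPKM in 8HQ replicate 1 and 9.70 in DMSO replicate 3, and was at 0 in all 6 libraries with FAC. Another hemoglobin gene, HBA1, did not follow it and was above 0 in all 6. HBA1 was 0.901, 1.08 and 3.20 FPKM with 8HQ/FAC, beside 0.261, 0.182 and 1.13 with DMSO. Of 12 leukocyte and Kupffer cell markers, between 10 and 12 were above 0 in DMSO and 8HQ libraries. In libraries with FAC between 5 and 8 were above 0. CD163, CD3E and TYROBP were at 0 in all libraries with FAC, and CSF1R, MARCO and PTPRC in all with 8HQ/FAC. Other markers did not follow them: LYZ, CD68, CD14, FCER1G and CD79A were above 0 in every library with FAC. CD79A was 0.9222, 0.6788 and 1.195 FPKM with 8HQ/FAC, beside 0.2516, 0 and 0.2099 with DMSO. CD68 was 45.92, 41.59 and 43.66 with 8HQ/FAC, beside 29.73, 32.06 and 31.81 with DMSO. The summed level of the 12 markers was mostly LYZ. It was 1180 to 1222 FPKM in DMSO, 1054 to 1086 in 8HQ, 1180 to 1264 in FAC and 1973 to 1995 in 8HQ/FAC. The part of these markers in the results below was not tested. All groups were of the HepG2 line. HBB and the low traces of CD163, CD3E and TYROBP divided the libraries by FAC, so a difference in handling cannot be told apart from FAC.

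HMOX1, the inducible heme oxygenase, rose with 8HQ, rose further with FAC and was highest with the combination. The gene lies on chromosome 22 (chr22:35380361-35394214, plus strand, GENCODE 29 on GRCh38). Its FPKM in replicates 1, 2 and 3 was 30.02, 29.68 and 28.9 with DMSO and 42.0, 40.3 and 44.9 with 8HQ. With FAC it was 70.6, 70.7 and 72.4, and with 8HQ/FAC it was 216, 217 and 248. No group overlapped another, and the order DMSO, 8HQ, FAC, 8HQ/FAC held for every library. The means were 29.5 ± 0.579, 42.4 ± 2.34, 71.2 ± 0.985 and 227 ± 18.2 FPKM (SD, n = 3). As ratios of means, the level was 1.43-fold that of DMSO with 8HQ, 2.41-fold with FAC and 7.69-fold with 8HQ/FAC. In the DMSO group 80.4% of tested genes had a lower mean than HMOX1, and with 8HQ/FAC 97.6% did.

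On the log2(FPKM + 1) scale, tested with limma over all 10823 genes, HMOX1 changed by 0.51 with 8HQ (SE 0.048, adjusted p = 1.89e-05) and by 1.24 with FAC (adjusted p = 3.38e-11). With 8HQ/FAC it changed by 2.90 against DMSO (adjusted p = 9.46e-16), by 2.39 against 8HQ (adjusted p = 5.56e-15) and by 1.66 against FAC (adjusted p = 1.93e-13). Ranked from the largest increase among all tested genes, HMOX1 stood 21st with 8HQ, 19th with FAC and 16th with 8HQ/FAC. The comparisons with DMSO share the same 3 control libraries. It was called in the same direction in every alternative run, with the change for 8HQ/FAC against DMSO between 2.58 and 3.32.

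**Figure D1:**
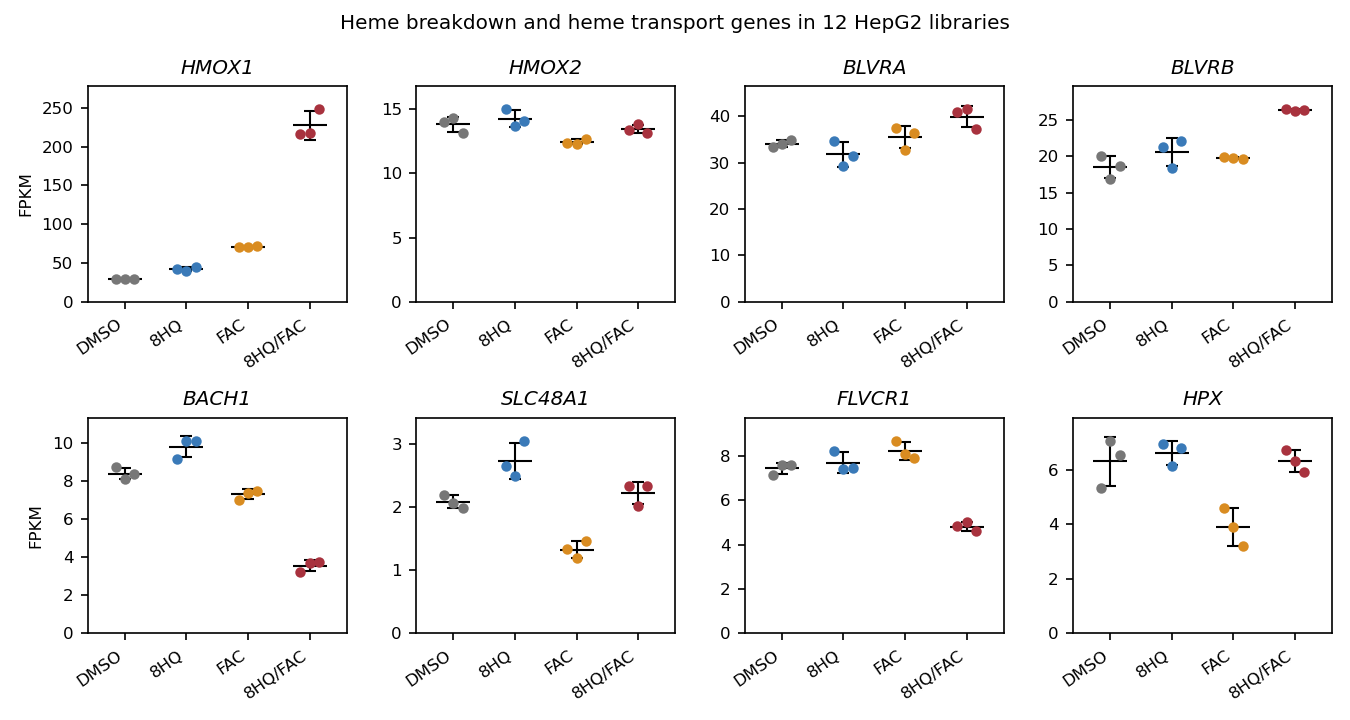
FPKM of the 8 genes (y axis, linear from 0, a different range in each panel) in the DMSO, 8HQ, FAC and 8HQ/FAC groups (x axis). Points are libraries, long bars are means and whiskers are SD (n = 3). HMOX1 climbs in steps from 29.5 to 227, BACH1 falls to 3.56 and FLVCR1 to 4.82 with 8HQ/FAC, and HPX and SLC48A1 are lowest with FAC alone, at 3.91 and 1.33.

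HMOX2, the constitutive heme oxygenase, moved little. Its FPKM was 14.0, 14.3 and 13.2 with DMSO, 15.0, 13.7 and 14.1 with 8HQ, 12.4, 12.3 and 12.7 with FAC, and 13.4, 13.8 and 13.2 with 8HQ/FAC. Only the FAC group lay apart from DMSO, below all its libraries; the 8HQ and 8HQ/FAC groups overlapped it. HMOX2 fell by 0.14 on the log2 scale with FAC (limma, adjusted p = 0.0135). That call was lost with quantile normalization (-0.10, adjusted p = 0.0864), median centring (-0.09, adjusted p = 0.0943) and without DMSO replicate 2 (-0.11, adjusted p = 0.0617). Against DMSO its log2 change was 0.04 with 8HQ (95% confidence interval -0.05 to 0.14) and -0.03 with 8HQ/FAC (-0.13 to 0.06). The second value was 0.25 with quantile normalization, 0.38 with median centring and -0.34 with equal FPKM sums, all called. Exons of HMOX2 share 215 of 3194 bases with NMRAL1 on the opposite strand, and no source used here says whether counting used strand, so its level is uncertain to that extent. Against FAC, HMOX2 rose by 0.10 with 8HQ/FAC (adjusted p = 0.0359), a call lost with the length trend removed (0.08) and without FAC replicate 1 or 2 or 8HQ/FAC replicate 1 or 2 (adjusted p from 0.0568 to 0.117), and the value was -0.17 with equal FPKM sums.

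The ratio of HMOX1 to HMOX2 within a library, a comparison of 2 levels per length, was 2.14 ± 0.0585 with DMSO (SD, n = 3). It was 2.97 ± 0.193 with 8HQ, 5.72 ± 0.023 with FAC and 16.9 ± 1.69 with 8HQ/FAC. The lowest ratio with 8HQ/FAC, 15.7, was above the highest with FAC, 5.74. The ratio does not depend on the total by which a library was scaled, so the inducible form gained on the constitutive form in each treated group whatever that total was.

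BLVRA and BLVRB encode biliverdin reductases: the product of BLVRA makes bilirubin from the biliverdin of adult heme breakdown, and that of BLVRB acts mainly on other biliverdin isomers and on flavins. BLVRB was 20.03, 16.9 and 18.6 FPKM with DMSO, 21.3, 18.4 and 22.1 with 8HQ, 19.9, 19.8 and 19.6 with FAC, and 26.5, 26.3 and 26.3 with 8HQ/FAC. The 3 libraries with 8HQ/FAC were above the other 9, which overlapped one another across groups. BLVRB rose by 0.49 on the log2 scale with 8HQ/FAC against DMSO (limma, SE 0.061, adjusted p = 1.95e-06). It rose by 0.34 against 8HQ (adjusted p = 7.91e-05) and by 0.40 against FAC (adjusted p = 2.08e-05). With equal FPKM sums both calls were lost (0.03, adjusted p = 0.588, and 0.12, adjusted p = 0.0695), and after removal of the length trend the call against 8HQ was lost (0.09, adjusted p = 0.158). The change against DMSO was called in every alternative, from 0.18 with equal FPKM sums to 0.91 with median centring. With 8HQ alone or FAC alone BLVRB was not called, at 0.15 (95% confidence interval 0.02 to 0.28, adjusted p = 0.2) and 0.09 (-0.04 to 0.22, adjusted p = 0.208). Without 8HQ replicate 2, BLVRB was called higher with 8HQ (0.22, limma, adjusted p = 0.0429).

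BLVRA was 33.3, 34.1 and 34.9 FPKM with DMSO, 34.7, 29.2 and 31.4 with 8HQ, 37.5, 32.8 and 36.4 with FAC, and 40.8, 41.5 and 37.3 with 8HQ/FAC. The 8HQ/FAC group lay above the DMSO and 8HQ groups, and its lowest library was under the highest of FAC. It rose by 0.22 against DMSO (limma, adjusted p = 0.00316), but with equal FPKM sums the value was -0.10 (adjusted p = 0.112) and after removal of the length trend -0.14 (adjusted p = 0.0353), so its direction hangs on the scaling. Per library the ratio of HMOX1 to BLVRA, 2 levels per length, was 0.867 ± 0.0368 with DMSO and 5.73 ± 0.803 with 8HQ/FAC (SD, n = 3). HMOX1 thus went from just under BLVRA to several times its level.

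BACH1, the heme-binding repressor of HMOX1, fell with 8HQ/FAC. Its FPKM was 8.73, 8.12 and 8.37 with DMSO and 9.18, 10.1 and 10.1 with 8HQ. With FAC it was 7.02, 7.41 and 7.52, and with 8HQ/FAC it was 3.22, 3.70 and 3.76. The 4 groups did not overlap, and their order was 8HQ, DMSO, FAC, 8HQ/FAC. BACH1 fell by 1.05 on the log2 scale with 8HQ/FAC against DMSO (limma, SE 0.056, adjusted p = 9.22e-11), by 1.25 against 8HQ (adjusted p = 1.21e-11) and by 0.87 against FAC (adjusted p = 1.05e-09). The change against DMSO was called in every alternative, between -1.31 with equal FPKM sums and -0.55 with the length trend removed, and relative to the median of all genes it was -0.81. With FAC it fell by 0.18 (adjusted p = 0.0145), a call lost with median centring (-0.13, adjusted p = 0.0537), without DMSO replicate 1 (-0.15, adjusted p = 0.0584) and without FAC replicate 1 (-0.15, adjusted p = 0.0596). With 8HQ the log2 change was 0.20 and was not called (adjusted p = 0.0558). It was called with quantile normalization (adjusted p = 0.0465), with a minimum of 5 FPKM (adjusted p = 0.045) and without 8HQ replicate 1 (adjusted p = 0.0456) or 8HQ/FAC replicate 1 (adjusted p = 0.0308). The 2 groups did not overlap; 26.1% of all tested genes had groups that did not overlap in that comparison. The ratio of HMOX1 to BACH1, 2 levels per length within a library, was 3.52 ± 0.122 with DMSO, 4.32 ± 0.315 with 8HQ, 9.74 ± 0.282 with FAC and 63.9 ± 4.58 with 8HQ/FAC (SD, n = 3). With 8HQ/FAC against DMSO, genes of like transcript length had a median log2 change of 0.15 for HMOX1 and -0.47 for BACH1. The part of length in this ratio was not tested.

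The 250 bases before annotated starts were read from RefSeq (GRCh38.p14) for 7 of the 8 genes; HMOX1 is named only. They are shown for BACH1, which fell, HMOX2, which moved little, and BLVRB, which rose with 8HQ/FAC, each written 5′ to 3′ on the gene's strand. Capitals mark a match, on either strand, to TGACTCA (the core bound by BACH1 and AP-1), TGACNNNGC (the core of the antioxidant response element) or CACGTG (an E-box).
BACH1, the first of 3 starts, chr21:29298672-29298921, plus strand: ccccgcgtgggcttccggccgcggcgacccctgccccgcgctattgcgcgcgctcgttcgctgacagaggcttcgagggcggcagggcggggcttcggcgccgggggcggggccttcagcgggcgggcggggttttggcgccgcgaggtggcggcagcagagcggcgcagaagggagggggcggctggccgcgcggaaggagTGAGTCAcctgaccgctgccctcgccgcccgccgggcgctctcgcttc
HMOX2, the first of 2 starts, chr16:4474486-4474735, plus strand: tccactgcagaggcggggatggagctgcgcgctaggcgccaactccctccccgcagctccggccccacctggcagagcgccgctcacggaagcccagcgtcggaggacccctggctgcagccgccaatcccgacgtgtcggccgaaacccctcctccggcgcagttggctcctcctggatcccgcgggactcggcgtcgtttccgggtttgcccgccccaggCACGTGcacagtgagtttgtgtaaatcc
BLVRB, chr19:40465746-40465995, minus strand: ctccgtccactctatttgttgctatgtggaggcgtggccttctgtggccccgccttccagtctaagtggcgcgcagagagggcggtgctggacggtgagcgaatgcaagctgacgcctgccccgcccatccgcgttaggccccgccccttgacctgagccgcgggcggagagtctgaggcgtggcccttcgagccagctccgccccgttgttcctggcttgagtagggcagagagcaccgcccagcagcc
The BACH1 window holds TGACTCA, read as its reverse complement, from base -48 before the start. The HMOX2 window holds CACGTG from base -28, which also contains the ACGTG of hypoxia response elements. Neither TGACTCA nor TGACNNNGC is in any other window of the 7 genes. Of 35116 promoter windows of the same length, 4.2% hold TGACTCA, 10.9% TGACNNNGC and 6.34% CACGTG. A match is a run of letters and not a shown binding site; the motifs were chosen after seeing the data.

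SLC48A1, a heme transporter that moves heme out of endosomes and lysosomes, was lowest with FAC alone. Its FPKM was 2.20, 2.06 and 1.99 with DMSO, 2.65, 2.49 and 3.06 with 8HQ, 1.33, 1.198 and 1.46 with FAC, and 2.33, 2.02 and 2.33 with 8HQ/FAC. The FAC group lay below all other libraries, the 8HQ group above all others, and the DMSO and 8HQ/FAC groups overlapped. SLC48A1 fell by 0.41 on the log2 scale with FAC (limma, adjusted p = 0.000196), between -0.62 and -0.36 in the alternatives run, all called. It rose by 0.47 with 8HQ/FAC against FAC (adjusted p = 1.58e-05). It rose by 0.27 with 8HQ (adjusted p = 0.0375), but this call was lost in 10 alternatives, among them quantile normalization (adjusted p = 0.064) and leaving out any DMSO library (adjusted p = 0.0689, 0.0972 and 0.106) or 8HQ replicate 1 or 3 (adjusted p = 0.0764 and 0.152). With 8HQ/FAC against DMSO SLC48A1 changed by 0.06 and was not called (limma, adjusted p = 0.418). That value was called at 0.43 with quantile normalization, 0.48 with median centring, 0.25 with the length trend removed and -0.16 with equal FPKM sums. Against 8HQ it fell by 0.21 (adjusted p = 0.0116), but was higher, and called, with quantile normalization (0.19) and median centring (0.21). The exons of SLC48A1 share 32 bases with HDAC7 and 74 with RAPGEF3, of 3456, on the opposite strand.

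HPX encodes hemopexin, the plasma protein that hepatocytes secrete to bind free heme. Its FPKM was 5.33, 7.07 and 6.54 with DMSO, 6.95, 6.13 and 6.79 with 8HQ, 4.62, 3.90 and 3.22 with FAC, and 6.73, 6.31 and 5.94 with 8HQ/FAC. Only the FAC group lay apart, below the other 9 libraries. HPX fell by 0.58 with FAC against DMSO (limma, SE 0.098, adjusted p = 0.000175), between -0.68 and -0.47 in the alternatives, all called. It rose by 0.58 with 8HQ/FAC against FAC (adjusted p = 5.05e-05). Against DMSO the log2 change with 8HQ/FAC was 0.01 (95% confidence interval -0.20 to 0.22, adjusted p = 0.937). This value was 0.43 and called with quantile normalization and with median centring, and -0.27 and called with equal FPKM sums.

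FLVCR1 encodes a plasma membrane protein known as a heme exporter and, in later work, as a choline transporter. Its FPKM was 7.13, 7.56 and 7.59 with DMSO, 8.23, 7.42 and 7.45 with 8HQ, 8.68, 8.06 and 7.89 with FAC, and 4.83, 5.01 and 4.60 with 8HQ/FAC. The 8HQ/FAC group lay below all other libraries. FLVCR1 fell by 0.54 against DMSO on the log2 scale (limma, adjusted p = 1.23e-07) and by 0.66 against FAC (adjusted p = 1.13e-08). The call against DMSO was lost with quantile normalization (-0.09, adjusted p = 0.136), median centring (-0.12, adjusted p = 0.05) and removal of the length trend (-0.03, adjusted p = 0.644). The call against FAC held in every alternative, with values between -0.91 and -0.20. With FAC against DMSO FLVCR1 rose by 0.13 and was not called (limma, adjusted p = 0.0527). These groups did not overlap, beside 61.4% of all tested genes. FLVCR1 was called higher there with quantile normalization (adjusted p = 0.0128), median centring (adjusted p = 0.0116), the length trend removed (adjusted p = 0.0147) and no variance trend (adjusted p = 0.0453). Calls also came without 8HQ replicate 1, FAC replicate 3 or 8HQ/FAC replicate 3.

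Counted over the 8 genes, 8HQ against DMSO called 2 higher (HMOX1 and SLC48A1) and 0 lower, where 2.49% of all tested genes were called higher and 2.41% lower, or 4.91% in either direction. The groups of 3 of the 8 genes did not overlap in that comparison, beside the 26.1% given above for all tested genes. With DMSO replicate 1, 2 or 3 left out in turn, or without 8HQ replicate 3, the count was 1, HMOX1. FAC against DMSO called 1 higher and 4 lower (HMOX2, BACH1, SLC48A1 and HPX), against a background of 24.8% higher and 29.2% lower, or 54.0% in either direction. Groups did not overlap for 6 of the 8, beside 61.4% of all tested genes. In FAC against DMSO, quantile normalization gave 2 higher and 3 lower, and median centring 2 and 2. For 8HQ/FAC against DMSO 3 were higher (HMOX1, BLVRA and BLVRB) and 2 lower (BACH1 and FLVCR1), where 27.5% of all tested genes were higher and 56.7% lower. A count of 5 of 8 called was thus below the share of all tested genes called in either direction, 84.3%, and groups did not overlap for the same number, 5, beside 84.2% of all tested genes. That split was 6 higher and 1 lower with quantile normalization and with median centring, and 2 and 5 with equal FPKM sums. The median log2 change of the 8 was 0.04, beside -0.23 for all tested genes.

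Against 8HQ, the combination called 3 higher and 3 lower, where 26.8% of all tested genes were higher and 57.6% lower (84.4% in all). This split was 6 and 1 with quantile normalization, 6 and 2 with median centring, 1 and 5 with equal FPKM sums and 1 and 2 after removal of the length trend. Groups did not overlap for 6 of the 8, beside 84.7% of all tested genes. Against FAC it called 6 higher and 2 lower, beside 26.8% and 56.0% of all tested genes (82.9% in all), and groups did not overlap for 7 of the 8, beside 83.6%. The split was 3 and 3 with equal FPKM sums and 4 and 3 after removal of the length trend. HMOX1, BLVRB, BACH1, HPX, SLC48A1 and FLVCR1 kept their direction in 8HQ/FAC against FAC in every alternative.

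**Figure D2:**
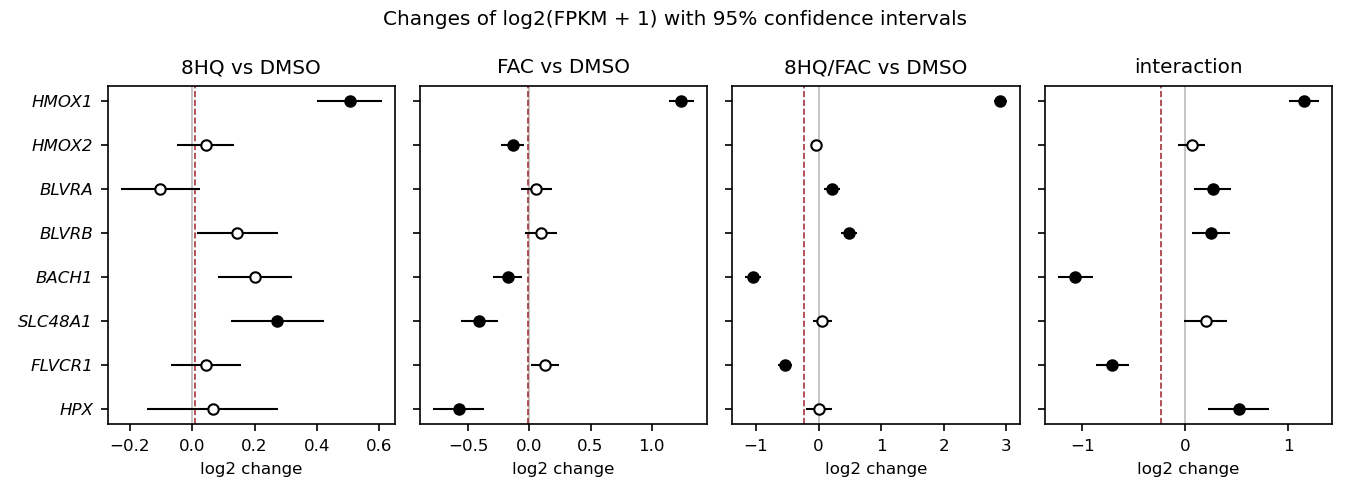
Log2 change of FPKM + 1 (x axis, a different range in each panel) for the 8 genes (y axis) in 3 comparisons with DMSO and in the interaction. Points are limma estimates from 3 libraries a group, bars are 95% confidence intervals, filled points are called at an adjusted p under 0.05 and the dashed line is the median of all 10823 tested genes. HMOX1 is right of 0 in all 4 panels, at 0.51, 1.24, 2.90 and 1.15, and BACH1 is at -1.05 and -1.07 in the last 2.

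The combined treatment was set beside the treatments alone with the interaction, the change that FAC brought in the presence of 8HQ less the change it brought alone. It called 4 of the 8 higher and 2 lower, where 23.4% of all tested genes were higher and 53.3% lower (76.7% in all). With the scalings tried the split was 6 and 2 (quantile normalization and median centring), 1 and 3 (equal FPKM sums) and 3 and 2 (length trend removed). For HMOX1 the interaction was 1.15 (limma, SE 0.068, adjusted p = 1.06e-09), between 0.75 and 1.53 in every alternative and called in all. In FPKM, HMOX1 was 12.8 above DMSO with 8HQ and 41.7 above it with FAC, which add to 54.5, and 197.5 above it with 8HQ/FAC. The product of the folds of means was 3.46, and the measured fold was 7.69. HMOX1 therefore exceeded both the sum and the product of the changes with either agent alone.

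BACH1 had an interaction of -1.07 (SE 0.079, adjusted p = 1.11e-08), between -1.30 and -0.60 in every alternative and called in all. Its product of folds was 1.02 and its measured fold 0.424. FLVCR1 had -0.71 (adjusted p = 4.86e-07), with a product of 1.15 and a measured fold of 0.648, and was called in every alternative. Its interaction was -0.285 with quantile normalization, -0.33 with median centring, -0.95 with equal FPKM sums and -0.225 with the length trend removed. Genes of transcript length like that of FLVCR1 had a median interaction of -0.46. HPX had 0.52 (adjusted p = 0.00322), lost with equal FPKM sums (0.28, adjusted p = 0.0761): HPX was lower with FAC than with DMSO, and between 8HQ/FAC and 8HQ the log2 change was -0.06 (95% confidence interval -0.27 to 0.15). BLVRA and BLVRB had 0.26 (limma, adjusted p = 0.00999) and 0.25 (adjusted p = 0.0154), which became -0.02 and -0.03 with equal FPKM sums. Both calls were also lost with the length trend removed (-0.03, adjusted p = 0.767, and 0.03, adjusted p = 0.715) and with no filter (adjusted p = 0.0583 and 0.0716). HMOX2, at 0.06, and SLC48A1, at 0.20, were not called (adjusted p = 0.377 and 0.0836). HMOX2 was called at 0.31 with quantile normalization, 0.43 with median centring and -0.21 with equal FPKM sums. SLC48A1 was called at 0.58 with quantile normalization, 0.57 with median centring, 0.39 after removal of the length trend, 0.33 with a pseudocount of 0.1, 0.26 without 8HQ replicate 3 and 0.24 without 8HQ/FAC replicate 2.

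**Figure D3:**
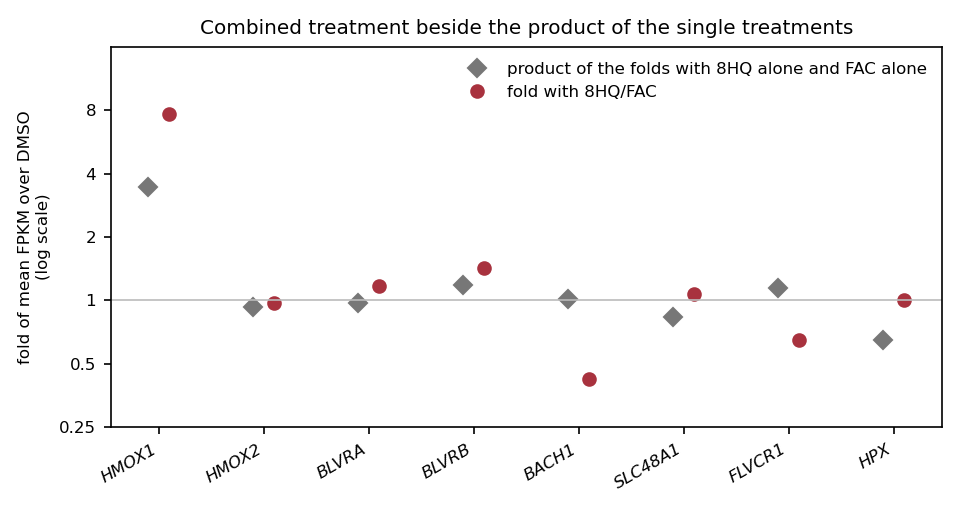
Fold of mean FPKM over DMSO (y axis, log scale) for the 8 genes (x axis), with circles for 8HQ/FAC and diamonds for the product of the folds with 8HQ alone and FAC alone. Each fold is a ratio of means of 3 libraries and carries no error bar. HMOX1 is at 7.69 against a product of 3.46, BACH1 at 0.424 against 1.02 and FLVCR1 at 0.648 against 1.15.

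Across tested genes, log2 change fell with transcript length in each comparison of 8HQ/FAC, and HMOX1 stood outside that trend. The Spearman correlation of the longest annotated transcript with the change against DMSO was -0.49 over 10761 genes, which are not independent replicates, and it was 0.02 for 8HQ and -0.12 for FAC. HMOX1, with a longest transcript of 1822 bases, was above 99.6% of the 1462 tested genes within 20% of its length, whose median change was 0.15. BACH1, at 5769 bases, had a change above only 11.8% of 2251 genes of like length, whose median was -0.47. FLVCR1, at 5939 bases, was near the middle of its like-length genes, above 46.6% of them, with a median of -0.49. BLVRB was above 69.3% and BLVRA above 36.4% of theirs, whose medians were 0.27 and 0.40. The part of transcript length in the changes of the 8 genes was not tested beyond these values and the removal of the trend.

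**Figure D4:**
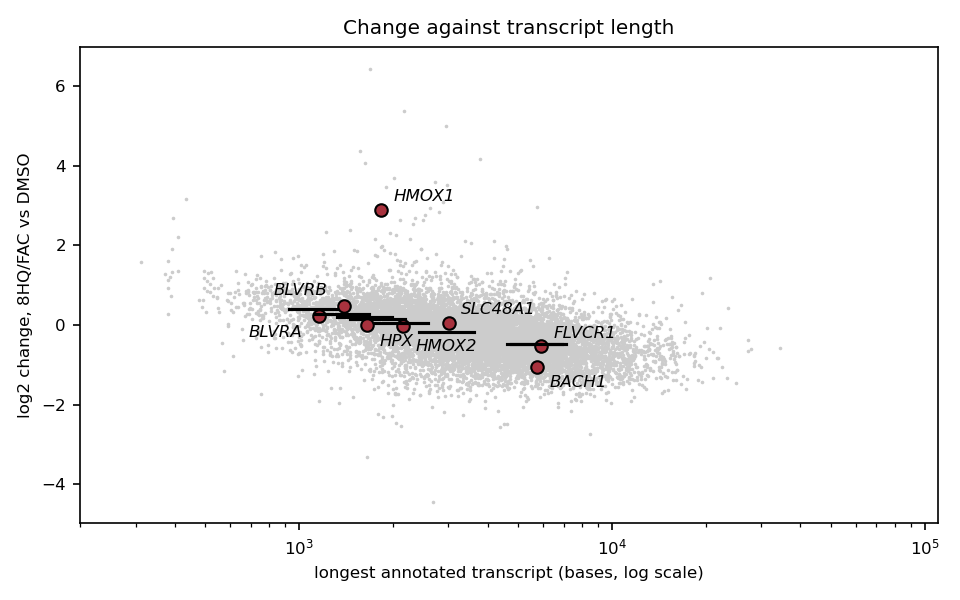
Log2 change for 8HQ/FAC against DMSO (y axis) against the longest annotated transcript in bases (x axis, log scale). Grey points are tested genes, red points are the 8 genes and each black bar is the median change of the genes within 20% of that gene's length. HMOX1 at 2.90 is far above its bar at 0.15, BACH1 at -1.05 is below its bar at -0.47 and FLVCR1 at -0.54 is on its bar at -0.49.

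**Figure D5:**
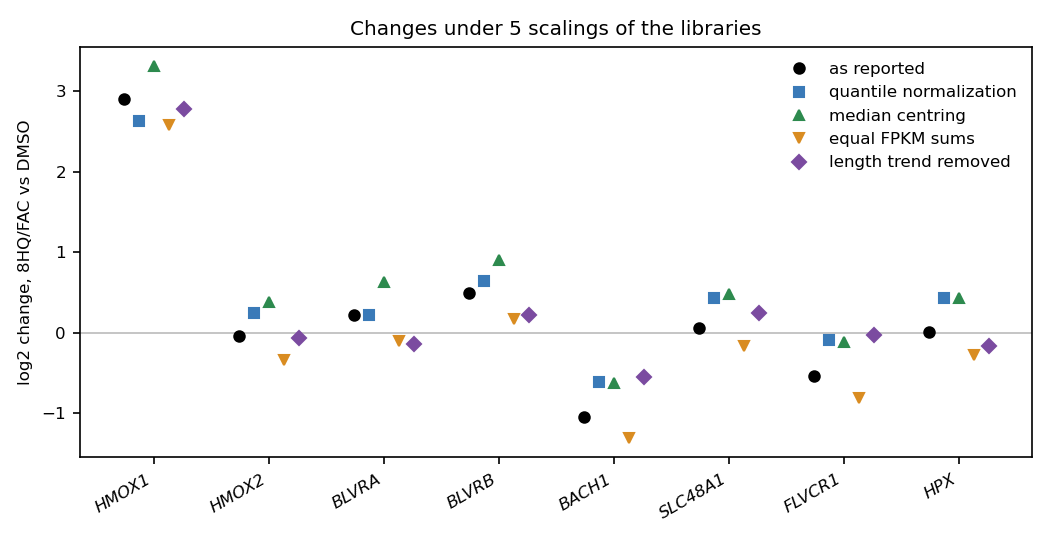
Log2 change for 8HQ/FAC against DMSO (y axis) of the 8 genes (x axis) as reported and under 4 other scalings of the libraries, shown by symbol. HMOX1 stays between 2.58 and 3.32, BLVRB above 0 and BACH1 and FLVCR1 below 0, and HMOX2, BLVRA, SLC48A1 and HPX have points on both sides of 0.

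Among the partners and controllers of BACH1 is the small MAF gene MAFF, whose protein pairs with BACH1 or NRF2 on DNA. MAFF went from 13.3 ± 0.144 FPKM with DMSO to 12.2 ± 0.182 with 8HQ, 5.23 ± 0.333 with FAC and 46.6 ± 2.02 with 8HQ/FAC (SD, n = 3). It fell by 1.196 with FAC and rose by 1.74 with 8HQ/FAC (limma, adjusted p = 1.71e-11 and 2.79e-14), with the same signs and calls under every scaling. Of 8 tested genes of that list, 8HQ called 2 higher and 1 lower, FAC 0 higher and 5 lower, and 8HQ/FAC 1 higher and 7 lower, with a median of -0.73. Of all tested genes 2.49% were higher and 2.41% lower with 8HQ, 24.8% and 29.2% with FAC, and 27.5% and 56.7% with 8HQ/FAC. With 8HQ/FAC the split was 1 and 5 with quantile normalization and with median centring, and 2 and 5 with the length trend removed. NFE2L2, which encodes NRF2, fell by 1.16 with FAC and by 1.37 with 8HQ/FAC, from 109 ± 3.03 to 48.3 ± 1.18 and 41.8 ± 2.62 FPKM (adjusted p = 7.57e-12 and 1e-13). KEAP1, which holds NRF2 for degradation, rose by 0.27 with 8HQ and fell by 0.99 with 8HQ/FAC (adjusted p = 0.00294 and 1.53e-11). NFE2L1, a relative of NRF2, fell by 0.998 with 8HQ/FAC (adjusted p = 7.32e-14). HERC2, a ubiquitin ligase gene, fell by 0.83 (adjusted p = 2.23e-10), a call lost with the length trend removed (-0.05). BACH2 and FBXL17 were too low to test.

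Genes that BACH1 represses in other work were counted besides HMOX1. Of 11 tested, 8HQ called 8 higher and 0 lower, where 2.49% of all tested genes were higher and 2.41% lower, with a median of 0.28 beside 0.01 for all tested genes. OSGIN1, a gene of the oxidative stress response, rose by 1.35 with 8HQ, from 37.8 ± 0.905 to 97.7 ± 1.38 FPKM (adjusted p = 6.63e-10). Sulfiredoxin (SRXN1), which reactivates oxidised peroxiredoxins, rose by 1.05 (adjusted p = 6.46e-09), and GCLM, the modifier subunit of glutathione synthesis, rose by 0.996 (adjusted p = 4.03e-08). Beside these, the change of HMOX1 with 8HQ was 0.51. With FAC 2 of the 11 were higher and 7 lower, with a median of -0.15, where 24.8% of all tested genes were higher and 29.2% lower. The FAC split was 3 and 8 with quantile normalization, 3 and 5 with median centring, and 2 and 8 with equal FPKM sums and after removal of the length trend. GCLM was among those that rose, by 0.32 (adjusted p = 0.000162). SLC7A11, the cystine importer, fell by 1.26 with FAC, from 12.02 ± 0.32 to 4.44 ± 0.128 FPKM (adjusted p = 1.19e-09), and was 12.9 ± 1.69 with 8HQ/FAC.

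With 8HQ/FAC 6 of the 11 tested genes that BACH1 represses in other work were higher and 2 lower, where 27.5% of all tested genes were higher and 56.7% lower. The split was 5 and 4 with quantile normalization, 9 and 1 with median centring, 4 and 6 with equal FPKM sums and 8 and 2 with the length trend removed. FTL and FTH1, the ferritin chains that store iron, rose by 0.64 and 0.68 (adjusted p = 4.11e-13 and 1.08e-12), and FTH1 was at -0.08 with quantile normalization. The 2 lower were SLC40A1 and GCLC. SLC40A1 was 24.3 ± 1.197 FPKM with DMSO, 11.1 ± 0.38 with FAC and 13.7 ± 0.635 with 8HQ/FAC. Its log2 changes were -1.065 with FAC and -0.78 with 8HQ/FAC, both called under every scaling. GCLC, the catalytic subunit of glutathione synthesis, had 44.9 ± 1.70 FPKM with DMSO, 80.2 ± 2.95 with 8HQ and 33.7 ± 3.27 with 8HQ/FAC. Its change with 8HQ/FAC against DMSO was -0.41, and 0.007 with median centring. The interaction of GCLC was -1.09 (limma, adjusted p = 4.37e-09).

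Of 8 enzymes of heme synthesis, all tested, 8HQ called 2, FAC 2 and 8HQ/FAC 5, beside 4.91%, 54.0% and 84.3% of all tested genes. With 8HQ and with FAC the 2 were higher, and with 8HQ/FAC 4 were higher and 1 lower. That last split was 7 and 1 with quantile normalization, 7 and 0 with median centring, 0 and 6 with equal FPKM sums and 5 and 1 after removal of the length trend. ALAS1, the rate-limiting enzyme in liver, rose by 0.28 with 8HQ (adjusted p = 0.000364), from 23.5 ± 0.364 to 28.8 ± 0.926 FPKM, and its 0.10 with 8HQ/FAC was -0.21 with equal FPKM sums. ALAD, which joins aminolevulinic acid into porphobilinogen, rose by 0.27 with FAC and had 12.5 ± 0.355 FPKM with 8HQ/FAC against 17.1 ± 0.835 with DMSO, an interaction of -0.73 (adjusted p = 1.76e-07) that was called under every scaling. CPOX, a late enzyme of the pathway, rose by 0.39 with FAC (adjusted p = 7.61e-07). UROD and UROS, which act between them, rose with 8HQ/FAC by 0.37 and 0.30 (adjusted p = 1.2e-05 and 5.3e-05), and both calls were lost with equal FPKM sums (0.05 and 0.02).

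Among 15 other carriers and transporters of heme, 8HQ called 2 higher and 0 lower, FAC 3 and 3, and 8HQ/FAC 5 and 8, beside 4.91%, 54.0% and 84.3% of all tested genes called in either direction. The last split was 7 and 6 with quantile normalization, 10 and 3 with median centring, 4 and 10 with equal FPKM sums and 8 and 3 after removal of the length trend. SLC46A1, an importer of folate that also carries heme, fell by 1.01 with 8HQ/FAC, from 8.24 ± 0.353 to 3.596 ± 0.138 FPKM (adjusted p = 4.22e-11). TMEM14C, a mitochondrial carrier of porphyrin precursors, rose by 0.82, from 58.4 ± 3.36 to 103.9 ± 2.40 FPKM (adjusted p = 6.22e-11). SLC25A38, the mitochondrial glycine carrier needed for heme synthesis, fell by 0.73 (adjusted p = 7.33e-11). HEBP2, a heme-binding protein gene, rose by 0.61 (adjusted p = 1.05e-09), and PGRMC1, another heme-binding protein, rose by 0.51 (adjusted p = 1.47e-09). These 5 kept their sign and call under every scaling. Its relative PGRMC2 rose by 0.60 with FAC (adjusted p = 2.77e-08) and had an interaction of -0.73 (adjusted p = 3.36e-08).

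HP encodes haptoglobin, the plasma protein that binds free hemoglobin, as hemopexin binds free heme. HP was 157 ± 3.38 FPKM with DMSO, 150 ± 10.4 with 8HQ, 98.6 ± 3.43 with FAC and 147 ± 4.30 with 8HQ/FAC (SD, n = 3). Like HPX it fell with FAC alone, by 0.67 (adjusted p = 8.75e-09), and its interaction of 0.65 (adjusted p = 1.42e-07) kept its sign and call under every scaling.

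Of 7 genes that take up, conjugate or export bilirubin, UGT1A1, SLCO1B1 and SLCO1B3 were too low to test. ABCC2, the canalicular exporter of conjugated bilirubin, rose by 0.34 with 8HQ, from 106.5 ± 1.25 to 135.5 ± 1.85 FPKM (adjusted p = 0.00013), and fell by 0.70 with 8HQ/FAC, to 65.3 ± 4.48 (adjusted p = 1.96e-10), under every scaling. ABCC3, the exporter toward blood, rose by 0.36 with 8HQ (adjusted p = 9.87e-05). GSTA1 and GSTA2, near-copies whose reads may have been split between them, rose with FAC by 0.46 and 0.75 from 2.14 ± 0.166 and 1.01 ± 0.251 FPKM (adjusted p = 0.000157 and 7.37e-05). In all, of the 4 tested, 8HQ called 2 higher and 0 lower, FAC 2 and 1, and 8HQ/FAC 2 and 2, beside 4.91%, 54.0% and 84.3% of all tested genes called in either direction. The last split was 2 and 1 with quantile normalization and after removal of the length trend, and 3 and 1 with median centring.

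POR, the cytochrome P450 reductase that feeds electrons to heme oxygenase, was 135 ± 3.02 FPKM with DMSO, 150 ± 1.62 with 8HQ, 124 ± 2.34 with FAC and 138 ± 1.27 with 8HQ/FAC. It rose by 0.15 with 8HQ and fell by 0.13 with FAC (adjusted p = 0.00326 and 0.000431), and at 0.02 with 8HQ/FAC was not called (adjusted p = 0.427). That value was -0.34 with quantile normalization, 0.44 with median centring and -0.30 with equal FPKM sums, so its direction depends on the scaling. Of the 4 heme sensors listed with it, EIF2AK1, the heme-regulated kinase of translation, rose by 0.33 with FAC and by 0.37 with 8HQ/FAC (adjusted p = 3.09e-07 and 1.17e-08). Its change with 8HQ/FAC was 0.21 with quantile normalization and 0.78 with median centring, and at 0.04 with equal FPKM sums it was not called. NR1D2, a nuclear receptor that binds heme, fell by 0.27 and 0.85 (adjusted p = 0.00196 and 3.17e-09). DGCR8, the heme-binding partner in microRNA processing, fell by 0.33 and 0.67 (adjusted p = 6.99e-05 and 6.36e-09). With POR, these 5 genes gave 1 higher and 0 lower with 8HQ, 1 and 4 with FAC, and 1 and 3 with 8HQ/FAC, beside 4.91%, 54.0% and 84.3% of all tested genes called in either direction. The last split was 2 and 3 with quantile normalization, 2 and 2 with median centring and after removal of the length trend, and 0 and 4 with equal FPKM sums.

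As a description over 12 libraries, which share the 4 groups, the transcripts most like each gene were ranked by Pearson correlation of log2(FPKM + 1). HMOX1 was most like GCSH (r = 0.994), GAPDH (r = 0.994) and PYCR1 (r = 0.993). BACH1 was most like MAP3K2 (r = 0.995), TSC1 (r = 0.995) and NOL8 (r = 0.995). FLVCR1 was most like ERCC2 (r = 0.991), BCR and GNA12, and BLVRB most like NUDT17 (r = 0.961), PTGES2 and SLC3A2. BLVRA was most like C11orf74 (r = 0.931), LRG1 and HSPBP1, and HMOX2 most like PITPNC1 (r = 0.931), BCL3 and SLC29A1. SLC48A1 was most like EPHX1 (r = 0.954), GPAT3 and PPIF, and HPX most like DHRS11 (r = 0.950), SPOCK2 (r = 0.938) and HP (r = 0.927). Among the 8 genes themselves, HMOX1 and BACH1 had r = -0.93, BACH1 and FLVCR1 r = 0.88, HMOX1 and BLVRB r = 0.88, and SLC48A1 and HPX r = 0.80. HMOX1 had r = -0.29 with HMOX2 and r = -0.06 with HPX. These values rest largely on 4 group levels and on totals that differed between groups.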

How the data were processed

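The authors deposited 1 table of FPKM values, a column per library and a row per gene with its NCBI GeneID. The submitters' processing notes list Bowtie 0.12.2 and, as builds, mm8 and mm9, although those are of mouse and the table is human. No source used here gives the counter, annotation or use of strand. Positions are those of GENCODE 29 on GRCh38, and promoter sequences those of RefSeq on GRCh38.p14.

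The 27 symbols that a spreadsheet had turned into dates were restored by GeneID. Testing was limited to the 54.0% of listed genes that reached 1 FPKM in 3 or more libraries, and was done on log2(FPKM + 1), where the pseudocount of 1 understates the change of low genes. A model with 1 mean per group over all 12 libraries was fitted by limma 3.58.1 (R 4.3.3), its variance following an intensity trend, after it was tested on simulated data. Calls took a two-sided Benjamini-Hochberg adjusted p under 0.05 over all tested genes within each of 6 comparisons. The low values used for depth lay within 0.05 of a whole multiple in 91.2% of 2552 cases. No counting intervals were computed, since no source used here gives mapped totals.

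Alternatives were quantile normalization, median centring, equal FPKM sums, removal of the length trend, no filter, a minimum of 5 FPKM, 0.1 as pseudocount, no variance trend, only the 2 groups compared, a replicate block and each library left out. Leaving out DMSO replicate 3 and 8HQ replicate 1 together, the libraries of their groups with most HBB, was added after seeing the data. The 8 genes and the lists were chosen with earlier results of these data known. Named genes were the 8, up to 4 of each list with the smallest adjusted p in 8HQ/FAC against DMSO or the interaction, the 3 most correlated genes of each, NFE2L2 and POR. SLC7A11, SLC40A1, HP, SRXN1, HBB, HBA1 and the leukocyte markers were named after their values were seen. A listed gene that the rule names is not reported here. Numbers were computed with Python 3.11.15, numpy 2.4.6 and pandas 2.3.3, and plotted with matplotlib 3.10.9.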

Additional observations from a re-analysis of the deposited data

Results flagged for a closer look

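With the values as reported, the effect of FAC differed for 6 of the 8 genes according to whether 8HQ was present, by the interaction term in limma. The log2 effect of FAC with 8HQ minus that without it was 1.15 for HMOX1 (adjusted p = 1.06e-09), 0.52 for HPX (adjusted p = 0.00322), 0.26 for BLVRA (adjusted p = 0.00999) and 0.25 for BLVRB (adjusted p = 0.0154). It was -1.07 for BACH1 (adjusted p = 1.11e-08) and -0.71 for FLVCR1 (adjusted p = 4.86e-07). The median over all tested genes was -0.24, and 76.7% of all tested genes passed the same test, so a difference of this kind was common in these libraries.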

How the results depend on the processing

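HMOX1 kept its direction and its call in all 6 comparisons under every alternative, with ranges over left-out libraries of 0.46 to 0.54 for 8HQ, 1.23 to 1.25 for FAC and 2.83 to 2.93 for 8HQ/FAC. Of all values of the 8 genes under the alternatives, 994 kept direction and side of the threshold, and 26 changed sign, some with a call also lost or gained. Of the rest, which kept direction, 41 lost a call and 29 gained one. The number of the 8 called with 8HQ against DMSO, 2 as reported, was 1 with no filter, with a pseudocount of 0.1, with only the 2 groups and with DMSO replicate 3 and 8HQ replicate 1 left out together, and 1 to 3 with each library left out. The number called for 8HQ/FAC against 8HQ, 6 as reported, was 3 with the length trend removed. With each library left out, the numbers called were 4 to 6 for FAC against DMSO, 5 for 8HQ/FAC against DMSO, 5 to 6 against 8HQ, 6 to 8 against FAC and 6 to 7 for the interaction.

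The sign changes were mostly from scaling. For 8HQ/FAC against DMSO, HMOX2 became 0.25 (quantile) and 0.38 (centring), BLVRA -0.10 (equal sums) and -0.14 (length), SLC48A1 -0.16 (equal sums), and HPX -0.27 (equal sums) and -0.17 (length), and between -0.092 and 0.084 over left-out libraries (-0.092 without DMSO replicate 1 and -0.03 without 8HQ/FAC replicate 1). Against 8HQ, HMOX2 became 0.21 and 0.34, SLC48A1 0.19 and 0.21 and HPX 0.39 and 0.37 (quantile and centring), and BLVRA -0.034 (length). Against FAC, HMOX2 became -0.17 (equal sums) and BLVRA -0.12 (equal sums) and -0.14 (length). In the interaction, equal sums gave HMOX2 -0.21, BLVRA -0.016 and BLVRB -0.026, and the length trend removed gave BLVRA -0.029. For FAC, BLVRA became -0.005 (length). For 8HQ, HMOX2 became -0.023 with both libraries left out, and HPX lay between -0.035 (without DMSO replicate 1) and 0.14 over left-out libraries. The cause was not tested.

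Replicate numbers did not pair the libraries: 18 correlations of same-numbered deviations lay between -0.08 and 0.05. With the replicate block the numbers of the 8 called were 2, 5, 5, 6, 8 and 6, as reported, and 450 of all genes were called in 8HQ against DMSO beside 531. SLC48A1 was not tested with the filter at 5 FPKM, and the interaction has no fit with only 2 groups. Depth limits SLC48A1 most.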
